A study of Mus musculus with 12 samples.

Results

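Fatty acid uptake and oxidation genes were described here in whole embryonic mouse hearts: 35 genes for uptake, activation, the carnitine shuttle, mitochondrial beta-oxidation, electron transfer and their regulators, chosen by symbol. All 35 were among the 45664 rows of the count table, and all 35 were among the 20691 genes that passed the filter on low counts. RNA was sequenced from 12 hearts, 1 library per embryo, in 4 groups of 3: E14.5 KO, E14.5 WT, E13.5 KO and E13.5 WT, where E is the embryonic day. KO hearts carry a disruption of Ino80, the ATPase of a chromatin-remodelling complex, in the endothelium through Tie2, and WT hearts are those whose genotype is given as wild type. The treatment text of the labels is the same for all 12 samples, so whether WT embryos carried a Tie2 transgene was not given in the sources used here, nor were the mouse strain and which exons of Ino80 were removed. Tie2 is expressed in endothelial cells and also in some blood lineage cells, so the heart muscle cells, which burn most of the fatty acids, are not the cells this disruption targets. All 6 E13.5 embryos came from litter 1, E14.5 KO replicates 2 and 4 and E14.5 WT replicates 7 and 8 from litter 2, and E14.5 KO replicate 1 and E14.5 WT replicate 7.2 from litter 3. Stage and litter therefore cannot be told apart, while each litter held both genotypes.

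Fatty acids reach heart muscle as free acids or inside lipoproteins, which lipoprotein lipase opens at the capillary wall. Inside the cell they are bound, joined to coenzyme A, carried into mitochondria as carnitine esters and shortened in a repeating spiral of oxidation, hydration, oxidation and cleavage, whose electrons pass to the respiratory chain. The fetal heart draws largely on glucose and lactate, and fatty acids become its main fuel after birth, under nuclear receptors such as PPAR-alpha and the estrogen-related receptors and their coactivators.

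The libraries held 46556032 to 182545647 counts. Ino80, the targeted gene, was at 27.0 to 31.9 CPM (counts scaled to library size) in E14.5 KO hearts, against 30.8 to 33.9 CPM in E14.5 WT hearts, and at 29.6 CPM in each E13.5 KO heart, against 30.7 to 36.6 CPM in E13.5 WT hearts. Neither difference passed the test (adjusted p = 0.726 at E14.5 and 0.447 at E13.5). At E13.5 each KO heart nevertheless lay below each WT heart (log2 fold change -0.19 ± 0.08, unadjusted p = 0.0374), as 11.2% of all genes did, while at E14.5 the genotypes overlapped. Cardiomyocyte markers, 12 genes such as Tnnt2 and Myh6, summed to 28550 to 35130 CPM in E14.5 KO, 32400 to 36150 in E14.5 WT, 26670 to 32670 in E13.5 KO and 29300 to 30350 in E13.5 WT hearts. Markers of hepatocytes, which also burn fatty acids, summed to at most 6.57 CPM in any heart. Of the 8 brown fat markers, Ucp1, Adipoq, Plin1 and Lep were at or near 0, each at most 0.0560 CPM in every heart. The whole list of 8 summed to 111 to 202 CPM in E14.5 KO and 158 to 207 in E14.5 WT hearts. At E13.5 it summed to 46.6 to 69.2 CPM in KO and 88.3 to 95.9 in WT hearts. The 4 that were tested had log2 fold changes above 0 between the stages in both genotypes. Erythroid markers summed to 41950 CPM in E14.5 KO replicate 1 and to 4905 to 18420 CPM in the other 11 hearts.

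Levels were divided by the length of each gene's annotated exons in GENCODE M21. In E14.5 WT hearts the level was highest for Fabp3, the fatty acid binding protein of heart and muscle, at 425 CPM per kb. It was followed by Acadl, the long-chain acyl-CoA dehydrogenase, at 294, Acaa2, the mitochondrial 3-ketoacyl-CoA thiolase, at 202, and the electron transfer flavoprotein subunits Etfb at 183 and Etfa at 135 CPM per kb. At the lower end stood Cpt1b, the carnitine palmitoyltransferase of adult heart muscle, at 2.38, the transporter Slc27a1 at 2.04 and Plin5, which links lipid droplets to mitochondria, at 0.205 CPM per kb. The liver form Cpt1a had 3.5 to 5.2 times the level per kb of Cpt1b in the 12 hearts. The annotated exon length was 8.73 kb for Hadha and 8.286 kb for Echs1, against 0.823 kb for Fabp3. Before division, Acadl at 589 CPM and Hadha at 410 CPM stood above Fabp3 at 350 CPM (means of E14.5 WT hearts). Whether these lengths match the mRNAs made in these hearts was not tested, so the order of genes and the Cpt1a ratio depend on the annotation. Cpt1b shares 81.4% and Etfb 53% of its exon bases with an overlapping transcript on the same strand, and Acadvl shares 42.9% with Dvl2 on the other strand, so the counts of these 3 genes are uncertain.

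The first question was how the pathway differed between E14.5 and E13.5 in each genotype. It was higher at E14.5 in both: 13 of the 35 genes rose in KO hearts and 14 in WT hearts, and none fell, at an adjusted p under 0.05 in edgeR's quasi-likelihood test with Benjamini-Hochberg adjustment over all 20691 genes. In all genes tested, 2.13% were called higher in KO and 1.87% in WT hearts, and 3.76% and 3.7% were called in either direction. The median log2 fold change of the 35 genes was 0.25 in KO and 0.38 in WT hearts, while that of all genes was 0.00 in both. The 3 E14.5 hearts lay above the 3 E13.5 hearts for 24 of the 35 genes in KO and for 27 in WT, against 12.1% and 14% of all genes. In WT hearts, Slc27a1 and Esrrg lay wholly below, as 15.5% of all genes did. Called genes were 10 in both genotypes, 3 in KO alone and 4 in WT alone. In bulk RNA, fewer cells of a type and less RNA per cell cannot be told apart.

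**Figure D1:**
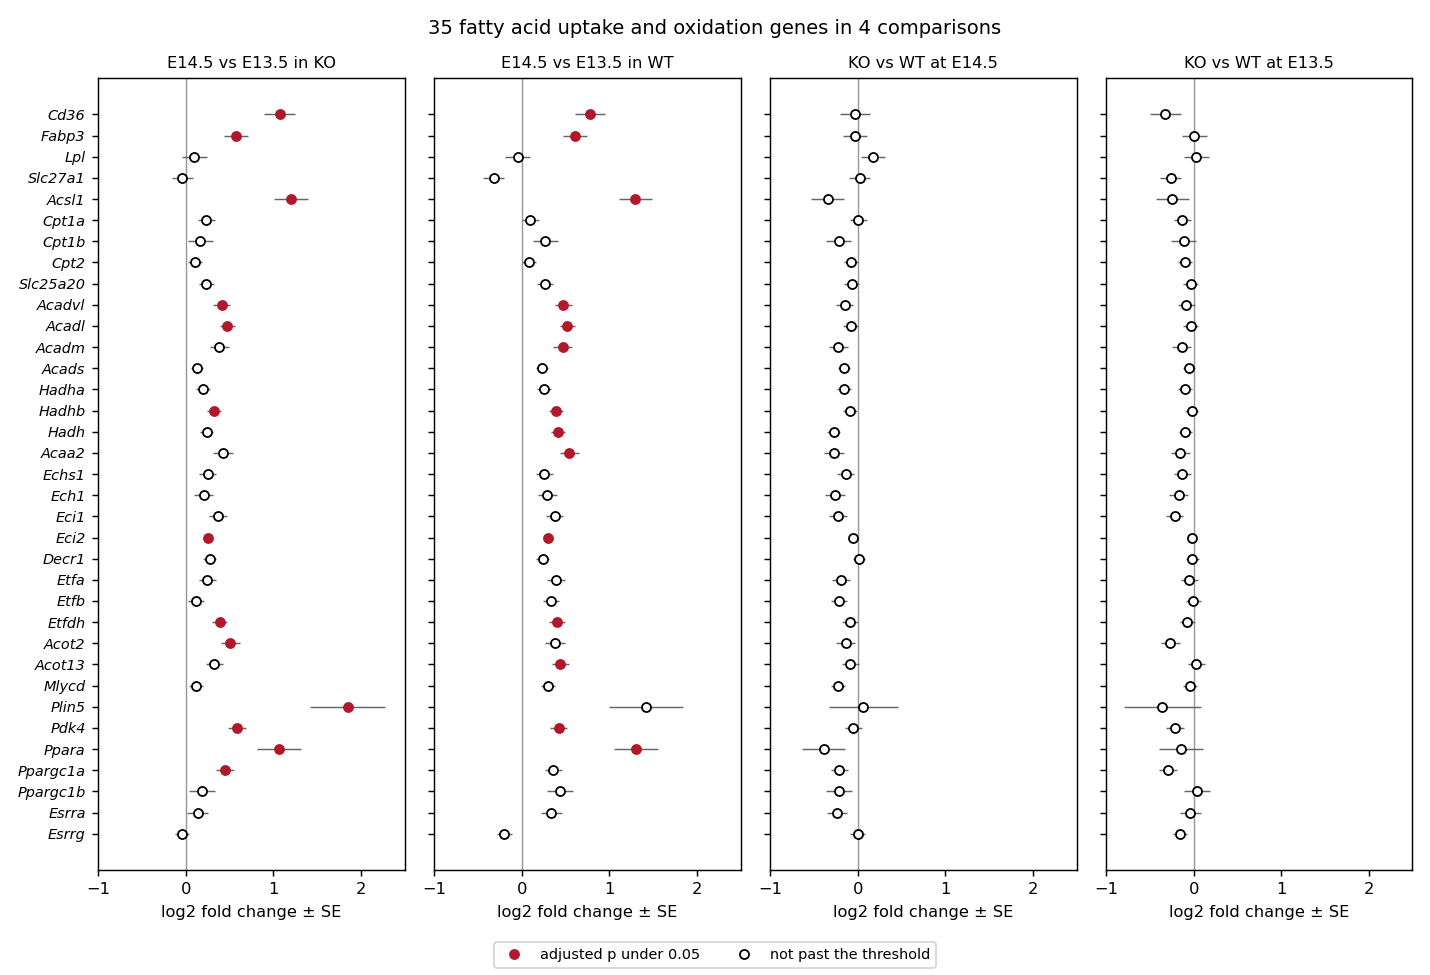
Log2 fold changes (x axis, with their standard error) of the 35 genes (rows) in 4 comparisons, with filled red points for an adjusted p under 0.05. The filled points stand in the stage panels, 13 in KO and 14 in WT hearts, and neither genotype panel has one.

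Values below are given in the order of replicates 1, 2 and 4 for E14.5 KO, 7, 7.2 and 8 for E14.5 WT, 3, 5 and 7 for E13.5 KO and 1, 2 and 4 for E13.5 WT hearts. Of the 4 genes of uptake and binding, Cd36 and Fabp3 rose in both genotypes, and Lpl and Slc27a1 did not pass the test in either. Cd36 stood at 290.0, 245 and 238 CPM in E14.5 KO hearts, against 144, 120.2 and 104 CPM in E13.5 KO hearts. The WT hearts had 199, 329 and 259 CPM at E14.5, against 181, 142 and 136 CPM at E13.5. Cd36, the membrane fatty acid translocase (chr5:17781690-17888801, GRCm38), differed by 1.07 ± 0.18 (adjusted p = 0.0136) on the log2 scale (± standard error) in KO and by 0.78 ± 0.17 (adjusted p = 0.0347) in WT hearts, and the stages did not overlap in either genotype. Fabp3 was at 278 to 411 CPM in E14.5 KO against 206 to 252 in E13.5 KO hearts, and at 303 to 400.2 in E14.5 WT against 213 to 251 in E13.5 WT hearts. Its log2 fold changes were 0.57 ± 0.14 (adjusted p = 0.0431) in KO and 0.61 ± 0.14 (adjusted p = 0.0357) in WT hearts. In KO hearts Lpl was at 367, 392 and 341 CPM at E14.5 and at 375, 378 and 275 CPM at E13.5. In WT hearts it was at 287, 379 and 309 CPM at E14.5 and at 385, 292 and 329.5 CPM at E13.5. These values of lipoprotein lipase overlapped between the stages in both genotypes, with log2 fold changes of 0.10 ± 0.14 (adjusted p = 0.756) in KO and -0.05 ± 0.14 (adjusted p = 0.874) in WT hearts. KO hearts held 14.3, 9.88 and 12.0 CPM of Slc27a1 at E14.5, against 11.7, 12.9 and 12.6 CPM at E13.5. WT hearts held 11.3, 12.4 and 11.9 CPM at E14.5 and 14.0, 16.3 and 14.3 CPM at E13.5. The stages overlapped in KO and not in WT, where the fatty acid transport protein was lower at E14.5 in each heart, at -0.32 ± 0.12 (adjusted p = 0.139) on the log2 scale.

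Activation of fatty acids, the step before mitochondrial entry, is represented by Acsl1, which rose in both genotypes. Acsl1 stood at 129, 120.2 and 88.2 CPM in E14.5 KO hearts, against 52.5, 50.9 and 43.2 CPM in E13.5 KO hearts. The WT hearts had 106, 192 and 129 CPM at E14.5, against 63.6, 54.8 and 55.2 CPM at E13.5. Acsl1, the long-chain acyl-CoA synthetase of heart (chr8:46471037-46536051), thus lay apart between the stages in both genotypes, with log2 fold changes of 1.20 ± 0.19 (adjusted p = 0.0115) in KO and 1.30 ± 0.19 (adjusted p = 0.0168) in WT hearts. None of the 4 genes of the carnitine shuttle passed the test in either genotype, although all 4 had log2 fold changes above 0. In KO hearts these were 0.23 for Cpt1a, 0.16 for Cpt1b, 0.10 for the inner-membrane transferase Cpt2 and 0.23 for the carnitine carrier Slc25a20. In WT hearts they were 0.10, 0.27, 0.08 and 0.27, in the same order of genes.

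**Figure D2:**
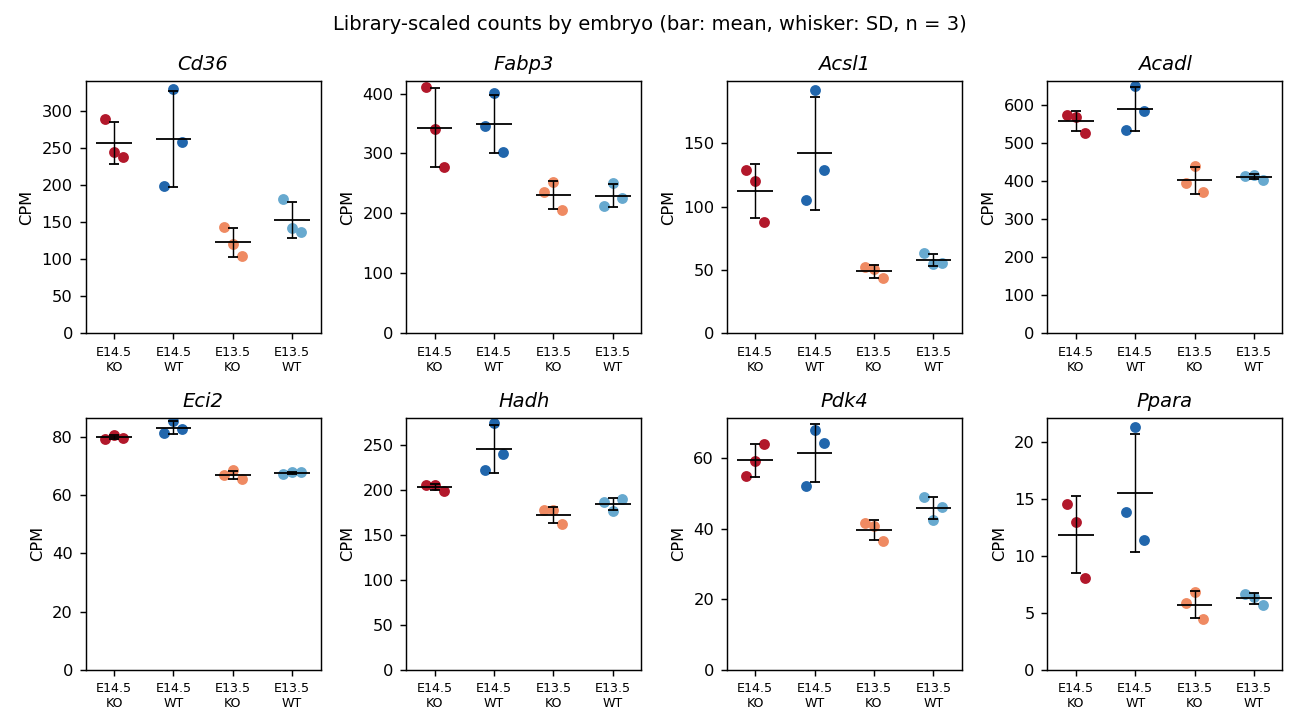
Library-scaled counts (y axis, CPM) of 8 of the genes in each heart (points) by group, with the mean (bar) and SD (whisker) of 3 embryos. E14.5 hearts lie above E13.5 hearts of their genotype in all 8 panels, and E14.5 WT hearts have the largest SD in every panel but that of Fabp3.

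The acyl-CoA dehydrogenases open the spiral, each for a range of chain lengths. Acadl and Acadvl rose in both genotypes and Acadm in WT hearts. In KO hearts Acadl was at 575, 569.8 and 527 CPM at E14.5 and at 395, 440.4 and 370.0 CPM at E13.5. In WT hearts it was at 534, 649 and 584 CPM at E14.5 and at 412, 417 and 404 CPM at E13.5. The long-chain enzyme differed by 0.47 ± 0.09 (adjusted p = 0.0182) in KO and 0.52 ± 0.09 (adjusted p = 0.0208) in WT hearts (log2), with no overlap. KO hearts held 86.6, 72.1 and 72.8 CPM of Acadvl at E14.5, against 63.1, 58.0 and 53.3 CPM at E13.5. WT hearts held 77.1, 94.5 and 84.8 CPM at E14.5 and 66.9, 58.5 and 59.4 CPM at E13.5. The very-long-chain enzyme had log2 fold changes of 0.41 ± 0.10 (adjusted p = 0.0408) in KO and 0.47 ± 0.10 (adjusted p = 0.0287) in WT hearts. Acadm, the medium-chain enzyme, was at 220.2 to 253 CPM in E14.5 KO against 159.6 to 191 in E13.5 KO hearts, and at 244 to 318 in E14.5 WT against 183 to 209.9 in E13.5 WT hearts. Its log2 fold changes were 0.38 ± 0.11 (adjusted p = 0.066) in KO and 0.47 ± 0.11 (adjusted p = 0.0355) in WT hearts, and the stages did not overlap in either. The short-chain enzyme Acads, at 0.13 ± 0.07 (adjusted p = 0.308) and 0.23 ± 0.07 (adjusted p = 0.0669) in KO and WT hearts, did not pass the test.

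Promoter windows from RefSeq (GRCm38.p6, 250 bases before to 50 after the annotated start) were at hand for 29 of the 35 genes, 36 windows in all. The binding sequence of PPAR-alpha with its partner, a DR1 element (the half-site AGGTCA repeated directly with 1 base between), searched on both strands, was in none of the 36, against 0.0396% of all 32851 windows, and the extended site of the estrogen-related receptors, searched as TNAAGGTCA, was also in none, against 1.28%. The plain half-site AGGTCA, searched after the longer ones gave no match and contained in both of them, was in 7 windows of 6 genes, 19.4% of the windows, against 16.3% of all. The 3 windows that hold it among the genes called in WT hearts are shown, each 5′ to 3′ on the minus strand, with the half-site or its reverse complement in capitals: Cd36 at chr5:17835847-17836146, Acadvl at chr11:70015379-70015678 and Acadm at chr3:153944594-153944893. A match is a string of letters and not a measured binding site. Both longer elements are so rare over all windows that finding neither in 36 windows says little about these genes.
Cd36: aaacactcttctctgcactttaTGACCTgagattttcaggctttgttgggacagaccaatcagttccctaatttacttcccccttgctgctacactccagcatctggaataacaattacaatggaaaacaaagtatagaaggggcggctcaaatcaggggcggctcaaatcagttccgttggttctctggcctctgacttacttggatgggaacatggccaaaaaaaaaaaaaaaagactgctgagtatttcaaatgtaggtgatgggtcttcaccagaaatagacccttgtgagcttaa
Acadvl: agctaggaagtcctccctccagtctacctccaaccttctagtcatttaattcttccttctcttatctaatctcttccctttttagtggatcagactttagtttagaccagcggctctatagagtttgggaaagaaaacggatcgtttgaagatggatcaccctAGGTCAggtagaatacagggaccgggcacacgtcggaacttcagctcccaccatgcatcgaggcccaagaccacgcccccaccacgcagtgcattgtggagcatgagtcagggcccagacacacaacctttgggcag
Acadm: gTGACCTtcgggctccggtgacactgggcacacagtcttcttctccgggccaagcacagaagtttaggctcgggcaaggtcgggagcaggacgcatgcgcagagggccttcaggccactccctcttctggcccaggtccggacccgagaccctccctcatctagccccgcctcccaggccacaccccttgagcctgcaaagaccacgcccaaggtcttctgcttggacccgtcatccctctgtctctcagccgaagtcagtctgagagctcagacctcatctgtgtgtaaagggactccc

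Later steps of the spiral are run by the trifunctional protein, of which Hadha and Hadhb are the subunits, by the short-chain hydroxyacyl-CoA dehydrogenase Hadh, the hydratase Echs1 and the thiolase Acaa2. Hadhb stood at 241, 237 and 236 CPM in E14.5 KO hearts, against 186, 195 and 189 CPM in E13.5 KO hearts. The WT hearts had 224, 287 and 249.6 CPM at E14.5, against 186, 201 and 193 CPM at E13.5. Hadhb rose in both genotypes, by 0.32 ± 0.08 (adjusted p = 0.0438) in KO and 0.39 ± 0.08 (adjusted p = 0.0283) in WT hearts on the log2 scale. In KO hearts Hadh was at 206, 205 and 199 CPM at E14.5 and at 178, 177 and 162 CPM at E13.5. In WT hearts it was at 222, 274 and 239.9 CPM at E14.5 and at 187, 176 and 189 CPM at E13.5. Hadh rose in WT hearts (0.41 ± 0.08, adjusted p = 0.0225), and in KO hearts its log2 fold change was 0.24 ± 0.08 (adjusted p = 0.102) with no overlap of the stages. KO hearts held 294, 229 and 239.8 CPM of Acaa2 at E14.5, against 209, 189 and 170.1 CPM at E13.5. WT hearts held 279.8, 347 and 292 CPM at E14.5 and 210.4, 223 and 197 CPM at E13.5. Acaa2 likewise passed in WT (0.54 ± 0.11, adjusted p = 0.0295) and not in KO hearts (0.42 ± 0.11, adjusted p = 0.0559), and the stages lay apart in both. Hadha, at 0.20 ± 0.08 (adjusted p = 0.189) in KO and 0.26 ± 0.08 (adjusted p = 0.0811) in WT hearts, and Echs1, at 0.25 ± 0.10 (adjusted p = 0.163) and 0.26 ± 0.10 (adjusted p = 0.138), did not pass. A call in 1 genotype and not in the other does not show a difference between them, which was tested directly and is given with the genotype comparisons.

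Of the 4 auxiliary enzymes, which bring double bonds of unsaturated fatty acids into the spiral, Eci2 rose in both genotypes. Eci2 stood at 79.3, 80.6 and 79.5 CPM in E14.5 KO hearts, against 66.8, 68.5 and 65.5 CPM in E13.5 KO hearts. The WT hearts had 81.2, 85.6 and 82.7 CPM at E14.5, against 67.1, 67.9 and 67.8 CPM at E13.5. The values within each group lay close together, and the enoyl-CoA isomerase differed by 0.25 ± 0.05 (adjusted p = 0.0173) in KO and 0.30 ± 0.05 (adjusted p = 0.0168) in WT hearts on the log2 scale. Eci1 had log2 fold changes of 0.37 ± 0.10 (adjusted p = 0.0581) and 0.38 ± 0.10 (adjusted p = 0.0524), the dienoyl-CoA reductase Decr1 of 0.27 ± 0.07 (adjusted p = 0.0599) and 0.24 ± 0.07 (adjusted p = 0.0796), and Ech1 of 0.20 ± 0.11 (adjusted p = 0.334) and 0.29 ± 0.11 (adjusted p = 0.145), in KO and in WT hearts. Etfdh, which passes the electrons on to ubiquinone, rose in both genotypes, by 0.39 ± 0.09 (adjusted p = 0.0393) in KO and 0.40 ± 0.09 (adjusted p = 0.0341) in WT hearts on the log2 scale. In KO hearts Etfb was at 203, 184 and 163 CPM at E14.5 and at 182, 166 and 159 CPM at E13.5. In WT hearts it was at 199, 229 and 210.0 CPM at E14.5 and at 158, 183 and 166 CPM at E13.5. The stages overlapped in KO and not in WT, and neither Etfb (0.12 ± 0.09 in KO with adjusted p = 0.512, 0.33 ± 0.09 in WT with adjusted p = 0.0599) nor Etfa (0.25 ± 0.10 in KO with adjusted p = 0.187, 0.39 ± 0.10 in WT with adjusted p = 0.0514) passed the test.

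Acyl-CoA thioesterases release free acids from coenzyme A. KO hearts held 85.7, 79.8 and 67.1 CPM of Acot13 at E14.5, against 63.9, 63.1 and 58.8 CPM at E13.5. WT hearts held 80.5, 92.8 and 73.2 CPM at E14.5 and 58.5, 63.7 and 60.0 CPM at E13.5. Acot13 rose in WT hearts (0.44 ± 0.10, adjusted p = 0.034) and did not pass in KO hearts (0.32 ± 0.10, adjusted p = 0.0815), with no overlap in either. Acot2 rose in KO hearts (0.51 ± 0.11, adjusted p = 0.0318) and did not pass in WT hearts (0.38 ± 0.11, adjusted p = 0.0696). Acot2 has a near-identical neighbour, Acot1, and how reads were split between them was not given in the sources used here. Plin5 rose in KO hearts, at 0.620, 0.404 and 0.320 CPM at E14.5 against 0.182, 0.118 and 0.0769 CPM at E13.5 (1.85 ± 0.42, adjusted p = 0.0377). These levels rest on 6 to 42 counts per KO library, and in WT hearts the log2 fold change was 1.42 ± 0.42 (adjusted p = 0.0722). Mlycd, which removes malonyl-CoA, the inhibitor of Cpt1, had 0.11 ± 0.08 (adjusted p = 0.487) in KO and 0.30 ± 0.08 (adjusted p = 0.059) in WT hearts.

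Among the 6 regulators, Pdk4 and Ppara rose in both genotypes and Ppargc1a in KO hearts. Pdk4 stood at 54.9, 59.2 and 64.1 CPM in E14.5 KO hearts, against 41.6, 40.7 and 36.5 CPM in E13.5 KO hearts. The WT hearts had 52.1, 68.0 and 64.2 CPM at E14.5, against 48.9, 42.5 and 46.1 CPM at E13.5. Pdk4, the kinase that turns pyruvate dehydrogenase off, differed by 0.59 ± 0.10 (adjusted p = 0.0145) in KO and by 0.42 ± 0.10 (adjusted p = 0.0398) in WT hearts (log2). In KO hearts Ppara was at 14.53, 13.0 and 8.08 CPM at E14.5 and at 5.85, 6.85 and 4.45 CPM at E13.5. In WT hearts it was at 13.9, 21.3 and 11.4 CPM at E14.5 and at 6.68, 6.42 and 5.69 CPM at E13.5. Ppara encodes PPAR-alpha (chr15:85734983-85802819), and its log2 fold changes were 1.06 ± 0.25 (adjusted p = 0.0408) in KO and 1.31 ± 0.25 (adjusted p = 0.0247) in WT hearts. KO hearts held 139, 118 and 119.8 CPM of Ppargc1a at E14.5, against 95.3, 96.0 and 85.9 CPM at E13.5. WT hearts held 133, 168 and 135 CPM at E14.5 and 122, 102 and 114 CPM at E13.5. This coactivator lay apart between the stages in both genotypes, at 0.44 ± 0.10 (adjusted p = 0.0372) in KO and 0.36 ± 0.10 (adjusted p = 0.0641) in WT hearts. Esrrg stood at 62.5, 69.6 and 79.5 CPM in E14.5 KO hearts, against 73.6, 71.2 and 72.7 CPM in E13.5 KO hearts. The WT hearts had 67.4, 75.2 and 69.2 CPM at E14.5, against 86.5, 78.2 and 78.0 CPM at E13.5. Esrrg did not pass the test, at -0.04 ± 0.08 (adjusted p = 0.836) in KO, where the stages overlapped, and -0.20 ± 0.08 (adjusted p = 0.173) in WT hearts, where they did not. The receptor Esrra had 0.14 ± 0.12 (adjusted p = 0.575) in KO and 0.34 ± 0.12 (adjusted p = 0.118) in WT hearts, and the coactivator Ppargc1b 0.19 ± 0.15 (adjusted p = 0.526) and 0.44 ± 0.15 (adjusted p = 0.102).

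How many genes passed depended on single hearts. Without E13.5 KO replicate 7, the heart lowest of its group for 29 of the 35 genes, 0 were called in KO hearts, and the median log2 fold change was 0.23. Without any 1 of the 3 E13.5 WT hearts 0 were called in WT, with medians of 0.36 to 0.38, and without E14.5 WT replicate 7.2, the highest of its group for 29 genes, 1 was called and the median was 0.27. Over all genes these fits called 49 in KO and, in WT, 10, 8 and 27 without replicates 1, 2 and 4 of E13.5 WT and 15 without E14.5 WT replicate 7.2. With every heart the counts over all genes were 779 in KO and 766 in WT. Other libraries moved the KO count by over 1.5 times too: it was 4 (over all genes 142) without E14.5 KO replicate 1, 8 (500) without E14.5 KO replicate 2, 3 (104) without E13.5 KO replicate 3, 4 (140) without E13.5 KO replicate 5, 6 (363) without E13.5 WT replicate 4 and 20 (1044) without E14.5 WT replicate 7.2. The WT count was also 8 (379) without E13.5 KO replicate 5. Of the 12 fits that each omit 1 library, Acsl1, Cd36 and Pdk4 were called in KO in 11, Eci2 and Acadl in 9, Ppargc1a and Acot2 in 7, Acadvl, Etfdh and Plin5 in 6, Ppara and Fabp3 in 3 and Hadhb in 2. In WT hearts Acsl1 was called in 9, Eci2, Acadl, Hadh, Ppara, Hadhb, Acadvl and Acaa2 in 8, Acadm and Etfdh in 7, Cd36 and Acot13 in 6, and Pdk4 and Fabp3 in 5.

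With litter as a block, 17 genes were called in KO and 21 in WT hearts, where that fit called 5.2% and 6.1% of all genes, against 3.76% and 3.7% without the block. Every member called without the block was among them. The block did not vary among E13.5 hearts and was centred within E14.5, so it cannot take litter out of the stage difference. It takes out only spread between the E14.5 litters. Fold changes hardly moved, as for Acsl1 in KO hearts (1.199 with the block and 1.204 without it, log2). Added were Acadm (adjusted p = 0.022 with the block), Acot13 (0.0279), Eci1 (0.00894) and Acaa2 (0.0141) in KO, and in WT Ppargc1a (0.0167), Acads (0.0417), Etfb (0.0292), Mlycd (0.0447), Etfa (0.0353), Eci1 (0.00785) and Esrra (0.0323). That block was centred within E14.5, a coding chosen after a block that set litter 2 alone against litter 1 had given 6 calls in KO and 7 in WT hearts (over all genes 303 and 243).

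**Figure D3:**
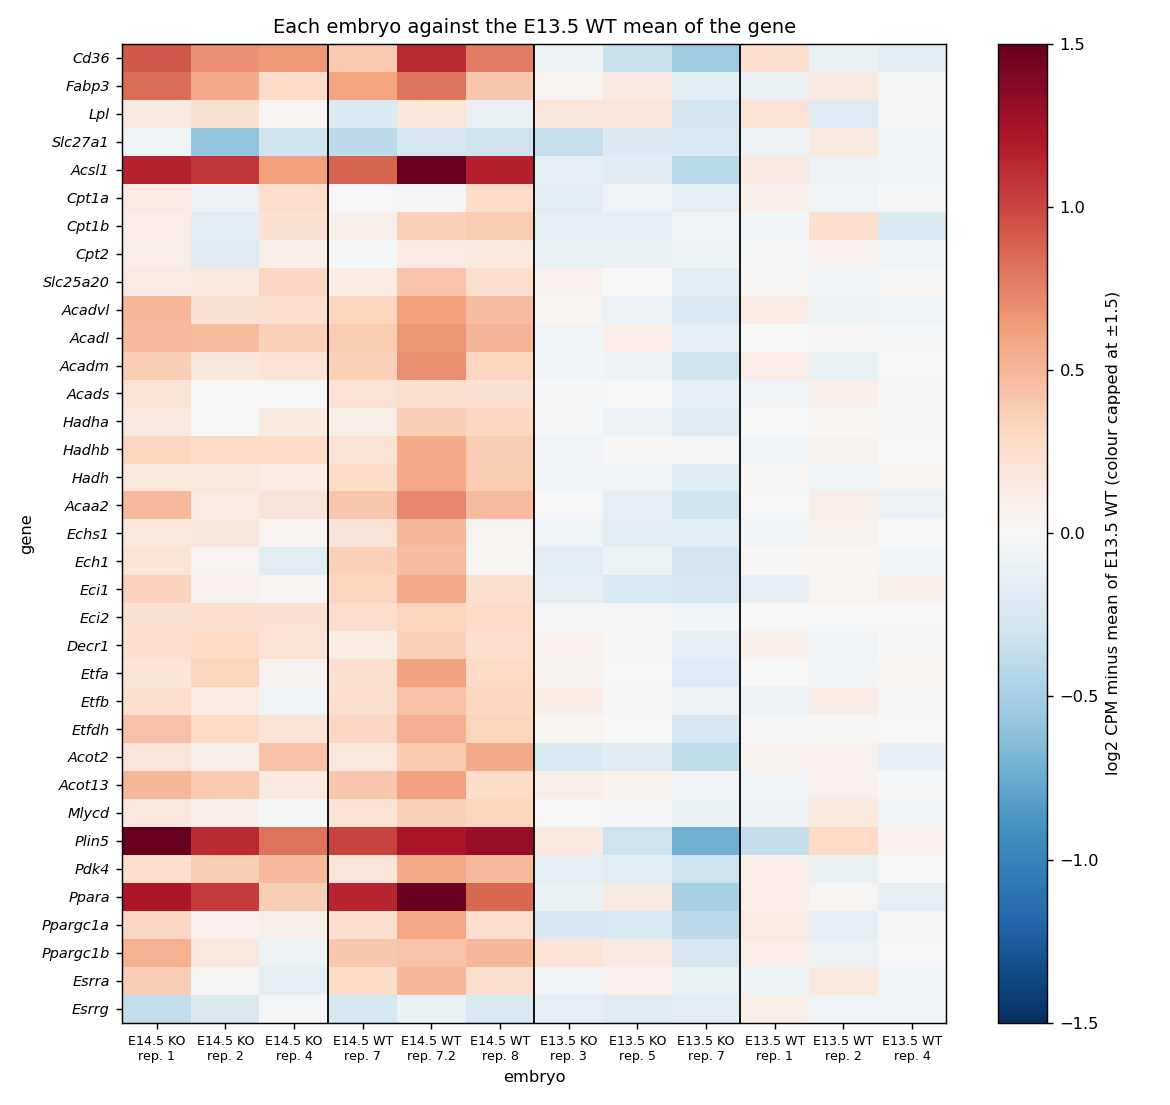
Log2 CPM of the 35 genes (rows) in the 12 hearts (columns) minus the mean of the 3 E13.5 WT hearts, with red above and blue below it and the colour capped at 1.5. Red fills most of the E14.5 columns, deepest in WT replicate 7.2 and, for Acsl1, Plin5 and Ppara, across both genotypes, and E13.5 KO replicate 7 is the bluest column.

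The next question was whether hearts with the endothelial disruption differed from WT hearts. None of the 35 genes passed the test at E14.5, at E13.5 or averaged over the stages, where 0.242%, 0.0773% and 1.56% of all genes did. At an unadjusted p under 0.05 there were 7 of 35 at E14.5, 4 at E13.5 and 11 averaged, against 9.7%, 10.5% and 14.8% of all genes. DESeq2 called 1 at E14.5 (Hadh, adjusted p = 0.0442), 0 at E13.5 and 2 averaged (Hadh, 0.0324, and Ppargc1a, 0.0322), where it called 1.68%, 1.5% and 4.48% of all genes. Fold changes were small and mostly below 0: 30 of the 35 genes were lower in KO hearts at E14.5, 31 at E13.5 and 34 averaged, where 51.9%, 49.6% and 50.7% of all genes were. The median log2 fold change was -0.14 at E14.5, -0.10 at E13.5 and -0.12 averaged. These genes vary together between hearts, so the shares are a description and no test of the list.

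The smallest p at E14.5 was that of Hadh, which stood at 206, 205 and 199 CPM in E14.5 KO hearts, against 222, 274 and 239.9 CPM in E14.5 WT hearts. All 3 KO values lay below all 3 WT values, and the log2 fold change was -0.27 ± 0.08 (adjusted p = 0.209). Eci2, Acads and Mlycd also lay wholly below at E14.5, at log2 fold changes of -0.06 ± 0.05 (adjusted p = 0.773), -0.16 ± 0.07 (adjusted p = 0.46) and -0.22 ± 0.08 (adjusted p = 0.357), so that 4 of 35 did, against 5.87% of all genes. On the other side, Lpl was at 367, 392 and 341 CPM in E14.5 KO and 287, 379 and 309 CPM in E14.5 WT hearts, which overlap (0.17 ± 0.14, adjusted p = 0.789). At E13.5 the smallest p was that of Ppargc1a, at 95.3, 96.0 and 85.9 CPM in E13.5 KO against 122, 102 and 114 CPM in E13.5 WT hearts, with no overlap (-0.29 ± 0.10, adjusted p = 0.363). It was 1 of 11 genes whose E13.5 KO hearts lay wholly below the E13.5 WT hearts, which 11.2% of all genes did; Slc27a1 (-0.26 ± 0.12, adjusted p = 0.473), Acot2 (-0.27 ± 0.11, adjusted p = 0.432), Acsl1 (-0.25 ± 0.19, adjusted p = 0.671), Eci1 (-0.21 ± 0.10, adjusted p = 0.473), Pdk4 (-0.21 ± 0.10, adjusted p = 0.474), Ech1, Esrrg, Echs1, Hadha and Cpt2 were the others. Cd36 had -0.03 ± 0.17 (adjusted p = 0.992) at E14.5 and -0.32 ± 0.17 (adjusted p = 0.535) at E13.5.

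Averaged over the stages, Ppargc1a (-0.25 ± 0.07, adjusted p = 0.118), Hadh (-0.18 ± 0.05, adjusted p = 0.121) and Eci1 (-0.22 ± 0.07, adjusted p = 0.151) had the smallest adjusted p. With litter as a block Ppargc1a (adjusted p = 0.0307) and Eci1 (0.029) passed, both lower in KO hearts, and 1.91% of all genes passed in that fit. Eci1 was also the 1 member called without litter 3 and without E14.5 KO replicate 1, where 324 and 489 genes were called in all. The 95% interval of the averaged log2 fold change lay within 0.5 of 0 for 32 of the 35 genes. Within litters, KO minus WT had a median over the 35 genes of -0.20 (log2 CPM) in litter 3 with 1 heart each, -0.10 in litter 2 with 2 hearts each and -0.10 in litter 1 with 3 hearts each, and 30, 28 and 31 genes were below 0 in them.

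Whether the KO difference itself changed from one stage to the other was tested as an interaction. It passed for 0 of the 35 genes and for 0% of all genes in edgeR, and 0 of the 35 had an unadjusted p under 0.05, against 3.62% of all. DESeq2 called 0 of the 35 and 2 of all genes. The median was -0.05 on the log2 scale, and 24 of the 35 genes had the larger stage change in WT hearts. The standard error of this contrast was 0.06 to 0.59, with a median of 0.14. Missing the threshold does not show that the stage change was alike in both genotypes.

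Of 77 listed other genes of uptake, activation, oxidation, droplets and regulation, 3 passed in a comparison of KO with WT hearts. Fabp5, another fatty acid binding protein, which is expressed in endothelial cells, was at 273, 327 and 249 CPM in E14.5 KO hearts, against 173, 166 and 177 CPM in E14.5 WT hearts. At E13.5 it was at 253, 255 and 214 CPM in KO and 182, 202 and 187 CPM in WT hearts, so KO lay wholly above WT at both stages. It rose by 0.72 ± 0.10 (adjusted p = 0.0169) at E14.5 and 0.53 ± 0.07 (adjusted p = 0.00409) averaged, calls that held in 10 and 12 of the 12 fits that each omit 1 library. Gpihbp1, the capillary protein that anchors lipoprotein lipase, was at 10.9, 7.43 and 4.95 CPM in E14.5 KO and 10.6, 15.8 and 10.4 CPM in E14.5 WT hearts, and at 1.94, 2.21 and 2.20 CPM in E13.5 KO and 3.55, 4.10 and 4.80 CPM in E13.5 WT hearts. It fell in KO hearts averaged over the stages (-0.82 ± 0.18, adjusted p = 0.0407), a call that held in 2 of 12 such fits. Acsl3, a synthetase linked to lipid droplets, was at 70.3, 74.6 and 79.9 CPM in E14.5 KO and 60.1, 60.2 and 57.1 CPM in E14.5 WT hearts. It rose in KO hearts at E14.5 (0.34 ± 0.06, adjusted p = 0.0292), in 2 of 12 such fits, while its E13.5 log2 fold change was -0.02 ± 0.06 (adjusted p = 0.949).

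Between the stages, the fatty acid binding protein Fabp4 and Gpihbp1 rose in both genotypes, as 2 of 10 other uptake genes. Fabp4 differed by 1.82 ± 0.22 (adjusted p = 0.00298) in KO and 0.98 ± 0.21 (adjusted p = 0.0334) in WT hearts, and Gpihbp1 by 1.87 ± 0.26 (adjusted p = 0.00554) and 1.56 ± 0.25 (adjusted p = 0.0205). Of 9 droplet and lipolysis genes, Mgll, the monoglyceride lipase (1.30 ± 0.19 in KO with adjusted p = 0.00864, 0.99 ± 0.19 in WT with adjusted p = 0.0248), and Dgat2, which makes triglyceride (1.10 ± 0.16 in KO with adjusted p = 0.00898, 0.94 ± 0.16 in WT with adjusted p = 0.0208), rose in both. Plin4, a droplet coat protein, rose in KO hearts (4.12 ± 0.69, adjusted p = 0.0144), where it was at 7.75, 3.15 and 1.12 CPM at E14.5, against 0.242, 0.197 and 0.236 CPM at E13.5. In WT hearts Plin4 also had the largest log2 fold change of the 9 genes, 2.20, which did not pass. The interaction called 0 of the 9, and 1 had an unadjusted p under 0.05. Of 27 other regulators, Klf15 (0.92 ± 0.16 in KO with adjusted p = 0.0178, 1.07 ± 0.17 in WT with adjusted p = 0.0168) and Perm1 (1.14 ± 0.19 in KO with adjusted p = 0.0144, 1.12 ± 0.19 in WT with adjusted p = 0.0208) rose in both, and the kinase Pdk2 in KO hearts (0.58 ± 0.12, adjusted p = 0.0232). Of 9 other activation and thioesterase genes, Acot1 passed in KO (0.51 ± 0.12, adjusted p = 0.043), and of 9 tested other mitochondrial oxidation genes, Nudt19 passed in WT hearts (0.54 ± 0.11, adjusted p = 0.031). None of 12 peroxisomal oxidation genes was called in any comparison. Of the 12 fits that each omit 1 library, the 7 WT calls named here held in 8, the KO calls of Fabp4, Gpihbp1 and Mgll in 12, and the KO call of Acot1, whose reads may be shared with the near-identical Acot2, in 3.

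**Figure D4:**
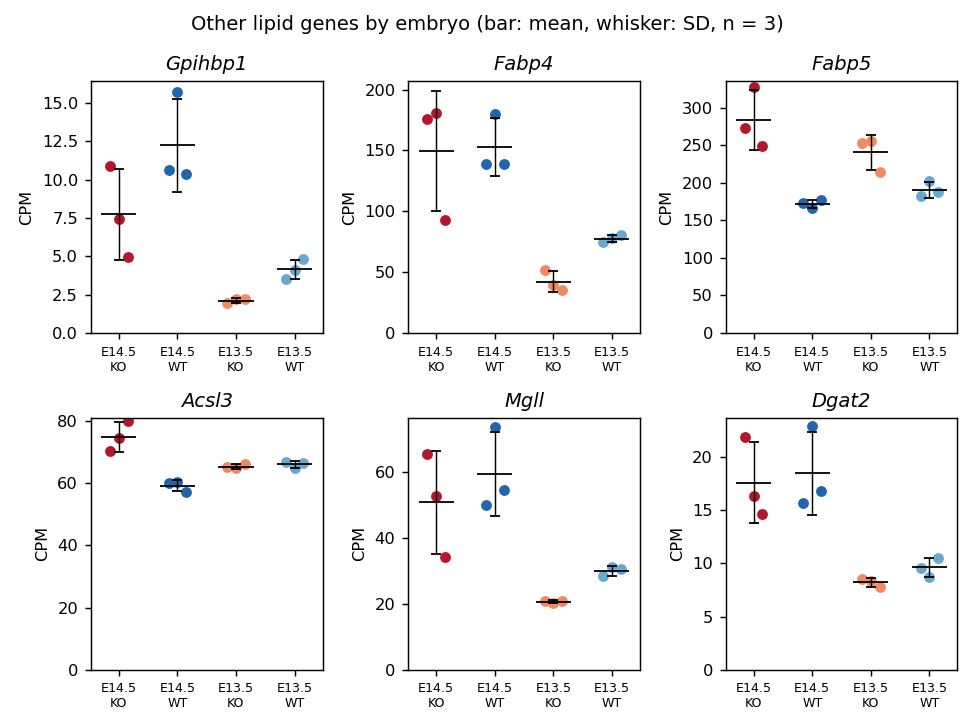
Library-scaled counts (y axis, CPM) of 6 other lipid genes in each heart (points) by group, with the mean (bar) and SD (whisker) of 3 embryos. KO hearts lie above WT hearts at both stages for Fabp5 and below them at E13.5 for Gpihbp1.

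Other energy genes and cardiomyocyte markers were set beside the fatty acid genes. Between the stages, the median log2 fold change of 28 respiratory chain genes was 0.14 in KO and 0.29 in WT hearts, that of 17 genes of the TCA cycle and pyruvate dehydrogenase 0.18 and 0.29, and that of 12 cardiomyocyte markers 0.14 and 0.25, while 19 glycolysis genes had -0.01 and -0.09. Called were 1 respiratory chain gene in KO (Cox8b, 1.00 ± 0.17, adjusted p = 0.0143) and 5 in WT hearts, namely Cox8b (1.16 ± 0.17, adjusted p = 0.0163), Sdhd, Ndufv2, Cox7a1 and Cycs (named after its values were seen), 4 TCA cycle genes in WT (Pdhb, Fh1, Pdha1 and Dld), and 1 glycolysis gene, Eno3, in WT. Among cardiomyocyte markers, Pln rose in both genotypes (0.59 ± 0.11 in KO with adjusted p = 0.0178, 0.53 ± 0.11 in WT with adjusted p = 0.0278), and Myl4 (-0.46 ± 0.09, adjusted p = 0.0255) and Myl7 (-0.76 ± 0.19, adjusted p = 0.0467), which mark atrial muscle, fell in KO hearts. In WT hearts the lowest log2 fold change of these 12 markers was -0.58, which did not pass, and the interaction called 0 of them. In KO against WT hearts, the medians were -0.16 at E14.5 and 0.00 at E13.5 for the respiratory chain, -0.13 and -0.02 for the TCA cycle, -0.15 and -0.05 for cardiomyocyte markers and 0.18 and 0.10 for glycolysis, and no gene of these 4 lists was called. The fatty acid genes had -0.14 and -0.10 in the same comparisons. At E14.5 all 28 respiratory chain genes, all 17 TCA cycle genes and all 12 cardiomyocyte markers were below 0, against 30 of the 35 fatty acid genes. At E13.5, 13, 9 and 8 genes of these lists were below 0, in the same order, against 31 of the 35. Of the 12 fits that each omit 1 library, the WT calls of Cox8b and Sdhd held in 8, those of Ndufv2, Cox7a1, Eno3, Fh1 and Pdha1 in 4, that of Pdhb in 5 and that of Dld in 3. The part of the muscle cell share in these values was not tested.

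**Figure D5:**
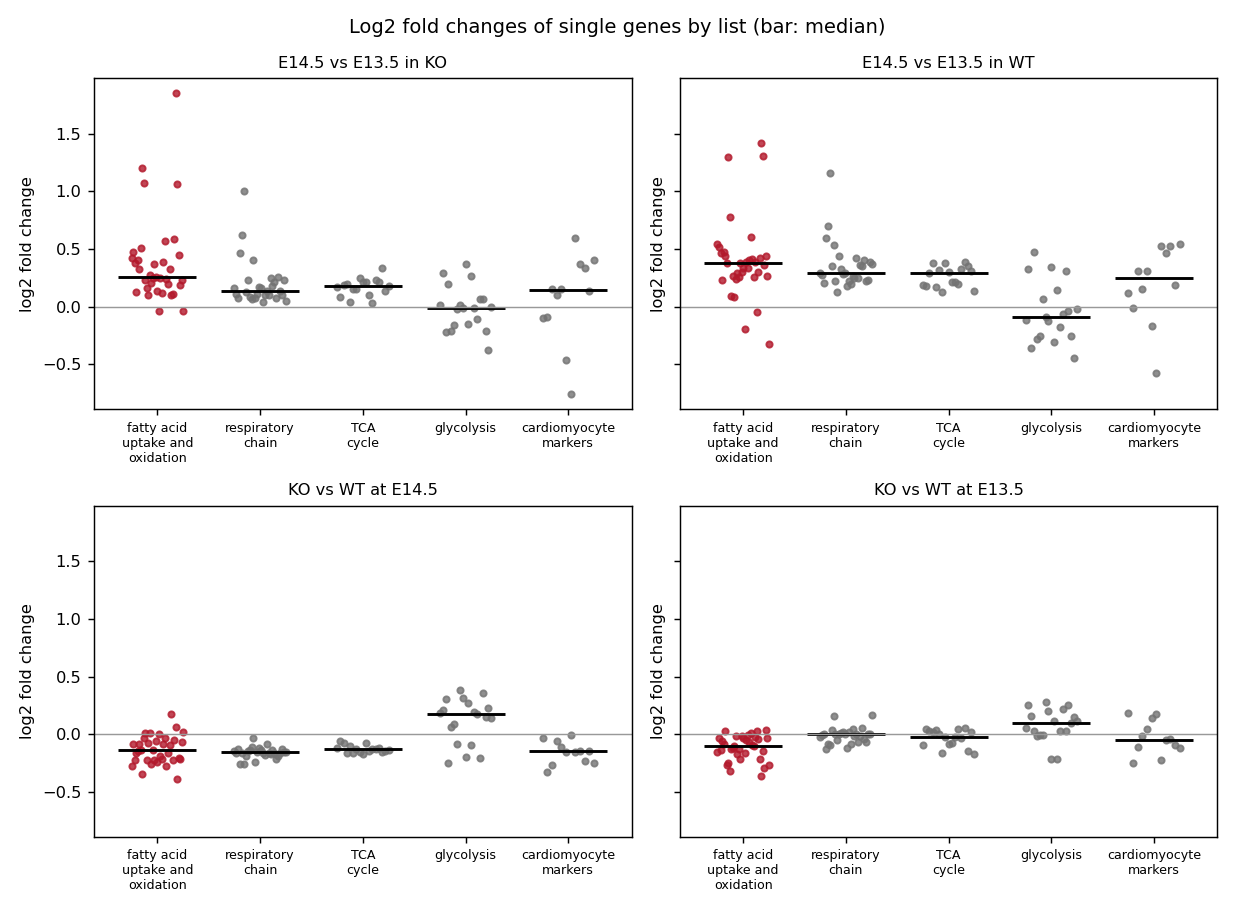
Log2 fold changes (y axis) of single genes (points) in 5 lists, with the median of each list (bar), in 4 comparisons. Fatty acid genes reach higher than the other lists between the stages, and in KO against WT hearts at E14.5 their median lies beside those of the respiratory chain, the TCA cycle and the cardiomyocyte markers, below 0.

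Markers of other cells were summed in each heart. Macrophage markers, 12 genes, summed to 40.1 to 138 CPM in E14.5 KO against 102 to 115 in E14.5 WT hearts, and to 42.3 to 82.3 in E13.5 KO against 117 to 132 in E13.5 WT hearts, lowest in E14.5 KO replicate 2 and E13.5 KO replicate 5. Without those 2 hearts, the count of fatty acid genes called between the stages was 0 in KO and 8 in WT, and over all genes 121 and 458, against 779 and 766 with them. The count in each genotype comparison was again 0. Endothelial markers, 10 genes, summed to 1205 to 1307 CPM in E14.5 KO against 1026 to 1212 in E14.5 WT hearts, and to 1123 to 1148 in E13.5 KO against 1152 to 1226 in E13.5 WT hearts. Of these, Pecam1 fell in KO hearts at E13.5 (-0.62 ± 0.07, adjusted p = 0.0121) and averaged over the stages (-0.47 ± 0.05, adjusted p = 0.00112), where Cldn5 also fell (-0.85 ± 0.12, adjusted p = 0.00625) and Eng rose (0.30 ± 0.06, adjusted p = 0.022). At E14.5, 8 endothelial markers were higher in KO than in WT hearts and 2 lower (list median 0.21, log2). None was called there, and 8 had an unadjusted p under 0.05. At E13.5, 4 were higher and 6 lower (list median -0.07). Between the stages, 3 of the 10 rose in KO hearts, namely Cldn5 (0.72 ± 0.17, adjusted p = 0.0425), Pecam1 (0.41 ± 0.07, adjusted p = 0.0182) and Esam (0.38 ± 0.07, adjusted p = 0.0213). In WT hearts Cldn5 rose (0.68 ± 0.17, adjusted p = 0.0474) and Tie1 fell (-0.38 ± 0.09, adjusted p = 0.0365). The list medians between the stages were 0.14 in KO and -0.09 in WT. For the interaction all 10 endothelial values lay on the positive side and 0 were called. Its unadjusted p was under 0.05 for 5 of the 10, against 3.62% of all genes. Erythroid markers, 10 tested of 12, summed to 4905 to 41950 CPM in E14.5 KO against 5832 to 10040 in E13.5 KO hearts, and to 11790 to 18420 in E14.5 WT against 6901 to 12040 in E13.5 WT hearts. Their median log2 fold change between the stages was 1.22 in KO, with none called, and 0.58 in WT, where the embryonic globins Hbb-y (-2.77 ± 0.65, adjusted p = 0.0399) and Hba-x (-2.56 ± 0.55, adjusted p = 0.0319) fell. In KO hearts the lowest of the 10 erythroid log2 fold changes was -2.09. The interaction had an unadjusted p under 0.05 for 0 of the 10. Brown fat markers summed to 111 to 202 CPM in E14.5 KO and 158 to 207 in E14.5 WT hearts, and to 46.6 to 69.2 in E13.5 KO and 88.3 to 95.9 in E13.5 WT hearts, and of the 4 tested, Fabp4, which endothelium also expresses, and Ebf2 rose between the stages in both genotypes and Cidea in WT hearts. Of 8 skeletal muscle markers 5 were tested, and Ckm rose in both genotypes (1.43 ± 0.26 in KO with adjusted p = 0.0182, 1.61 ± 0.26 in WT with adjusted p = 0.0205), while Tnnt3 fell in KO hearts (-0.85 ± 0.20, adjusted p = 0.0425). In WT hearts the lowest log2 fold change of these 5 was -0.81, which did not pass, and the interaction called 0 of them. The part of these cells in the results was not tested.

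The 35 genes summed to 4672 to 5271 CPM in E14.5 KO, 4894 to 6058 in E14.5 WT, 3553 to 4050 in E13.5 KO and 4037 to 4180 in E13.5 WT hearts, so the sums of the stages did not overlap in either genotype. Single hearts stood high or low for most of the genes at once. E14.5 KO replicate 1 was the highest of its group for 22 genes and replicate 4 the lowest for 20. E14.5 WT replicate 7.2 was the highest for 29 and replicate 7 the lowest for 26, and among E13.5 KO hearts replicate 3 was the highest for 20 and replicate 7 the lowest for 29. Both hearts of litter 3, E14.5 KO replicate 1 and E14.5 WT replicate 7.2, are thus the ones that most often lead their groups. Among E13.5 WT hearts replicate 2 was the highest for 19 genes and the lowest for 12, and replicates 1 and 4 were the lowest for 13 and 10. Across the 35 genes, the stage change in KO and in WT hearts had a Pearson correlation of 0.911, a description of genes measured in the same libraries, and 32 of the 35 were above 0 in both.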

How the data were processed

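Raw counts by gene symbol, not normalized, were deposited by the authors. The submitters' processing notes name GRCm38, STAR 2.5.3a, DESeq, DESeq2 and featureCounts, with no strand or multi-mapping setting given in the sources used here. Per the labels, libraries came from mRNA of whole hearts with a NEBNext Ultra kit. P-values measure only the spread between these embryos. No libraries of 1 group were copies (chi-square per degree of freedom 18.4 to 152).

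The analysis used edgeR 4.0.16 in R 4.3.3. After filterByExpr 20691 genes stayed, the 12 libraries were scaled by TMM, and a quasi-likelihood fit to the 4 group means left 8 residual degrees of freedom, with 17.1% as the common biological coefficient of variation. P-values were two-sided and adjusted by Benjamini-Hochberg over all genes, with a threshold of 0.05. The default fit was kept and the robust option listed as an alternative after both had been seen. Standard errors are the absolute log2 fold change over the square root of F; log2 CPM has a prior count of 2. The fit was tested on simulated data, whose pass criterion was reset by expression level after a first one had failed. Alternatives included DESeq2 1.42.0. Litters in the labels pair the E14.5 embryos; across genes, deviations of KO and WT hearts from their group means correlated at 0.00399 on average in the 5 pairs that share a litter and at -0.00501 in the 4 that do not. The members and lists were chosen with earlier results of these data known. Values of every embryo are given for the 10 genes with the smallest p among those called and, in each comparison, for the gene with the smallest p in each direction; of other lists, at most 4 called genes per list and comparison are named, and those of marker lists were named after their values were seen.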

Additional observations from a re-analysis of the deposited data

How the results depend on the processing

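The median log2 fold change of the 35 genes kept its sign in the stage comparisons and in KO against WT hearts under all alternatives, from 0.23 to 0.31 for stage in KO and 0.27 to 0.41 in WT hearts, and the WT value was 0.27 without litter 3. Counts of called genes moved more, and so did those over all genes, given in parentheses. Y-linked genes were expressed in 2 of 3 E13.5 KO hearts and in 1 of 3 hearts of each other group. The sexes were thus not balanced between the stages in KO hearts, nor between KO and WT hearts at E13.5. For stage in KO hearts, 13 (779) in the main result, the count was 6 (382) with Y-linked expression as a covariate, 3 (197) with only the libraries compared, 0 (121) without the pair of KO hearts lowest in macrophage markers, 7 (624) without litter 3 and 6 (303) with the uncentred litter block. For stage in WT hearts, 14 (766) in the main result, it was 25 (2140) in DESeq2, 8 (458) without that pair, 2 (67) without litter 3 and 7 (243) with the uncentred litter block. In KO against WT hearts, 0 (50) at E14.5 and 0 (322) averaged in the main result, DESeq2 called 1 (348) at E14.5. Averaged over the stages the counts were 2 (926) in DESeq2, 2 (395) with the litter block, 2 (395) with the uncentred one, 2 (398) with the robust fit and block, and 1 (324) without litter 3. The causes were not tested. Leaving out each library in turn gave 0 to 20 calls for stage in KO, 0 to 17 in WT and 0 to 1 for KO averaged over the stages, with a median for stage in WT of 0.27 to 0.41. Over single genes, 410 values lost the threshold, 28 gained it, and no called gene changed sign. The other 2720 were counted as unchanged, which includes changes of sign in genes not called in the main result. For example, the log2 fold change of Cd36 in KO against WT hearts at E14.5 ranged from -0.19 to 0.17 over the fits that each omit 1 library. The robust fits and the uncentred block were added after seeing the data. The median of the interaction ranged from -0.10 to 0.05. Each gene but Plin5 had at least 307 counts in every library (lowest for Cpt1b), so depth limits mainly Plin5.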
